A study of Mus musculus with 51 samples.

Results

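The data described here are the 22515 autosomal peaks of histone H3 lysine 27 trimethylation (H3K27me3) in extra-embryonic ectoderm (ExE) of E6.5 mouse embryos, out of 144952 autosomal peaks in the 6 allelic tables of the series (3 histone marks in ExE and in epiblast). Every peak of that table was a member, and the quantity of interest was the ratio of paternal to maternal reads in embryos of mothers that lacked Dnmt3a and Dnmt3b in the oocyte, compared with the same ratio in a wild-type cross. The reads of a peak could be assigned to a parent because the embryos were F1 hybrids, with a C57BL6/Babr (B6) and a CAST/Ei (CAST) genome in the wild-type crosses, and crosses are written with the mother first. The knockout cross, matDKO/CAST, had mothers of mixed B6 and 129 background that were floxed/floxed for Dnmt3a and for Dnmt3b and carried Zp3-cre, a transgene expressed in growing oocytes, so that their embryos inherited 1 deleted copy of each gene. The sires of the matDKO/CAST and the B6/CAST embryos were CAST in both cases, and the reciprocal cross CAST/B6 served as another group. Each group had 2 libraries, each from pooled, manually dissected ExE, which the paper calls biological replicates. The sources do not say whether the pools of a group came from different mothers or days, so that p-values measure the spread between these libraries. A cross of mothers with the same B6 and 129 background but without the deletion was not analysed here, so that the deletion and the 129 background of the mothers cannot be told apart.

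As background, H3K27me3 is deposited by Polycomb repressive complex 2 and marks silent chromatin. In genomic imprinting, DNA methylation that the oocyte places at a germline differentially methylated region (DMR) with the de novo methyltransferases Dnmt3a and Dnmt3b is kept on the maternal copy after fertilization. At the Airn and Kcnq1ot1 promoters this methylation silences a long noncoding RNA, which is therefore made from the paternal copy alone. In the trophoblast lineage, to which ExE belongs, both RNAs are known for silencing genes in cis on the paternal chromosome, together with Polycomb marks. A separate, noncanonical form of imprinting rests on H3K27me3 that the oocyte itself leaves on the maternal copy.

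The promoters of 4 of the imprinted genes at which the parental balance of H3K27me3 or of H3K4me3, the mark of active promoters, differed between the crosses are printed here as the RefSeq sequence of the GRCm38.p6 reference, from 250 bases before the start to 50 bases from it, with the CpG dinucleotides, the substrate of DNA methylation, in capitals.
Airn: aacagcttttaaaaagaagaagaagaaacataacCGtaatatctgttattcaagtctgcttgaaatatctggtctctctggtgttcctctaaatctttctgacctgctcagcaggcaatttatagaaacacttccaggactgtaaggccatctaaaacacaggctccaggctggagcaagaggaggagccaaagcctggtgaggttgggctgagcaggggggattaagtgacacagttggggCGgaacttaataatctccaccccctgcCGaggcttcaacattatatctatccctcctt
Kcnq1ot1: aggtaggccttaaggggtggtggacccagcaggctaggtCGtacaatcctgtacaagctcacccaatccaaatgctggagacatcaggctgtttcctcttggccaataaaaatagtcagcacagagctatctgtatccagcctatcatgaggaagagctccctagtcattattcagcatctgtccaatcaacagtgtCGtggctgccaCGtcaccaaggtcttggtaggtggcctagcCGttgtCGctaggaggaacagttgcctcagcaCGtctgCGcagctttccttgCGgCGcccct
Plagl1: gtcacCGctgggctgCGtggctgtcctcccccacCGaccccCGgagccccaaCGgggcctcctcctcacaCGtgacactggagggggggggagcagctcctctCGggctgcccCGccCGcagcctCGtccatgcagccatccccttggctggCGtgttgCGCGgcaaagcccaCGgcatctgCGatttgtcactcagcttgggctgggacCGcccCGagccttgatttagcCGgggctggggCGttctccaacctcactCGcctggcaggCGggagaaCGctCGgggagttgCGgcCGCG
Grb10: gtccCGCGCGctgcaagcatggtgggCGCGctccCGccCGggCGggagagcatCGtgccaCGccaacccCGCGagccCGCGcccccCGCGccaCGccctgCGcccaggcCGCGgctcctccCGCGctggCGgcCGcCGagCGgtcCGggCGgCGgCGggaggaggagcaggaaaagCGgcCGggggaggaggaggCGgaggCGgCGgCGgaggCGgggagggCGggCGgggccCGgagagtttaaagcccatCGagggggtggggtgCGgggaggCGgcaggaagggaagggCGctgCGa
The Airn window, chr17:12741061-12741360 on the plus strand, held 3 CpGs, a number that 77.0% of 31396 promoter windows of the same length reached. The Kcnq1ot1 window, chr7:143296498-143296797 on the minus strand, held 9, a number that 46.2% of promoters reached. The Plagl1 window, chr10:13090582-13090881 on the plus strand, held 26, which 17.4% reached, and the Grb10 window, chr11:12037371-12037670 on the minus strand and 1 of 2 entries for this gene, held 45, which 2.00% reached. No H3K27me3 peak covered the starts of Airn and Kcnq1ot1, and the nearest peaks lay 19811 and 27189 bp on either side of the Airn start and 46549 and 951 bp on either side of the Kcnq1ot1 start. The Plagl1 and Grb10 windows lay inside H3K27me3 peaks that are described further on. H3K4me3 over the Airn window, in ExE, was 93.0 and 92.0% paternal in B6/CAST against 49.8 and 52.8% for matDKO/CAST (log2 change of the paternal to maternal ratio -3.51, adjusted p = 1.59e-07). Over Kcnq1ot1 these shares were 97.0 and 97.3% against 52.9 and 48.2% (-5.01, adjusted p = 5.64e-09), and over Plagl1 97.4 and 91.8% against 43.5 and 37.9% (-4.73, adjusted p = 2.53e-05). At these 3 promoters the active mark was thus on both parental copies in the knockout cross, whereas over Grb10 it was mostly maternal in the wild type (6.38 and 14.3% paternal) and the change to 25.0 and 33.3% did not pass. Promoters of Gnas (1 of 4 entries) and Zdbf2 (1 of 2 entries), whose sequences are not shown, also lay inside passing H3K27me3 peaks, and their H3K4me3 changes of -0.34 and -0.88 did not pass. For a gene with several entries, an entry inside a passing peak was preferred, and then the entry with the most CpGs. For Grb10, Gnas and Zdbf2 the place inside a passing peak and the CpG number thus partly follow from this choice.

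With depth given in M (mega) reads, peaks held 4.26 and 3.38 M reads assigned to a parent in the B6/CAST libraries, 2.74 and 2.11 M for matDKO/CAST and 6.58 and 3.99 M for CAST/B6. The maternal share of these reads was 50.6 and 50.1%, 55.8 and 53.1%, and 49.2 and 49.1%, and the median log2 ratio of paternal to maternal reads was -0.10 and -0.06, -0.35 and -0.18, and 0.01 and 0.03 in the same order, so that every log2 ratio in the text is relative to the autosomal median of its library, while paternal shares in percent are not. Over 3 windows within Dnmt3b, chromosome 2, 153675001 to 153678000, the input was 0.207 and 0.239 RPKM in matDKO/CAST, below every wild-type library (0.346 and 0.419 in B6/CAST, 0.556 and 0.544 in CAST/B6), and H3K36me3 was 0.991 and 0.997 RPKM against at least 1.72. These windows were chosen as the 3 in a row within Dnmt3b with the lowest ratio of matDKO/CAST to wild-type input. Their low input therefore follows from the choice and is no test of the deletion. Over the whole of Dnmt3b (0.508 and 0.521 RPKM against 0.448 to 0.573) and of Dnmt3a (0.605 and 0.543 against 0.495 to 0.547) the input of matDKO/CAST was not below the wild types. H3K4me3 at the promoters of 10 ExE marker genes summed to between 196 and 300 RPKM in the 6 ExE libraries, with the matDKO/CAST libraries at 196 and 261, but to between 174 and 259 RPKM in the 6 epiblast libraries, so that this list did not separate the tissues. Epiblast markers summed to between 139 and 211 RPKM in ExE libraries and to between 272 and 414 RPKM in epiblast libraries, and the matDKO/CAST ExE libraries, at 139 and 211, lay just outside the range of the wild types in ExE, 140.4 to 207. Markers of visceral endoderm, which surrounds the ExE, summed to between 164 and 237 RPKM in ExE libraries and markers of decidua, a maternal tissue, to between 49.9 and 80.4, with both matDKO/CAST libraries inside the wild-type range for each of them (174 and 179, and 67.1 and 68.5). No marker of visceral endoderm was below 0.5 RPKM, and 1 or 2 of the 10 decidua markers were in each ExE library. The part of any admixed cells in the results was not tested.

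Of the 22515 peaks, 18592 (82.6%) were informative, with at least 20 reads in 1 allele column of a wild-type library, and the ratio changed at 140 of them (0.753%; edgeR, interaction of cross and parent, adjusted p below 0.05). Nearly all of these peaks shifted toward the maternal allele, 133 peaks (0.715% of those tested) against 7 (0.0377%) that shifted toward the paternal allele. Peaks with very small p lay over the Airn domain on chromosome 17 and over Kcnq1 and Cdkn1c on chromosome 7. The median change over all informative peaks was -0.00. At an unadjusted p below 0.05, 896 peaks were toward the maternal and 479 toward the paternal allele. The libraries of the 2 crosses did not overlap at any of the 140 peaks, as was true of 38.6% of all informative peaks. Both allele columns of a library come from 1 sample, and with the library as a replicate block 237 peaks passed, all 140 among them, 221 toward the maternal and 16 toward the paternal allele. Without replicate 1 of B6/CAST 65 peaks passed and without replicate 2 of B6/CAST 75, in fits where the lone library is assumed to vary like those of the other cross. Passing peaks were deep, with a median of 1390 allelic reads over the 4 libraries against 270 for all informative peaks. The peak nearest to the threshold inside it lay over Pou2f2 (-0.61, adjusted p = 0.0487) and the nearest outside it over Neurl1a (-0.97, adjusted p = 0.0551).

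**Figure D1:**
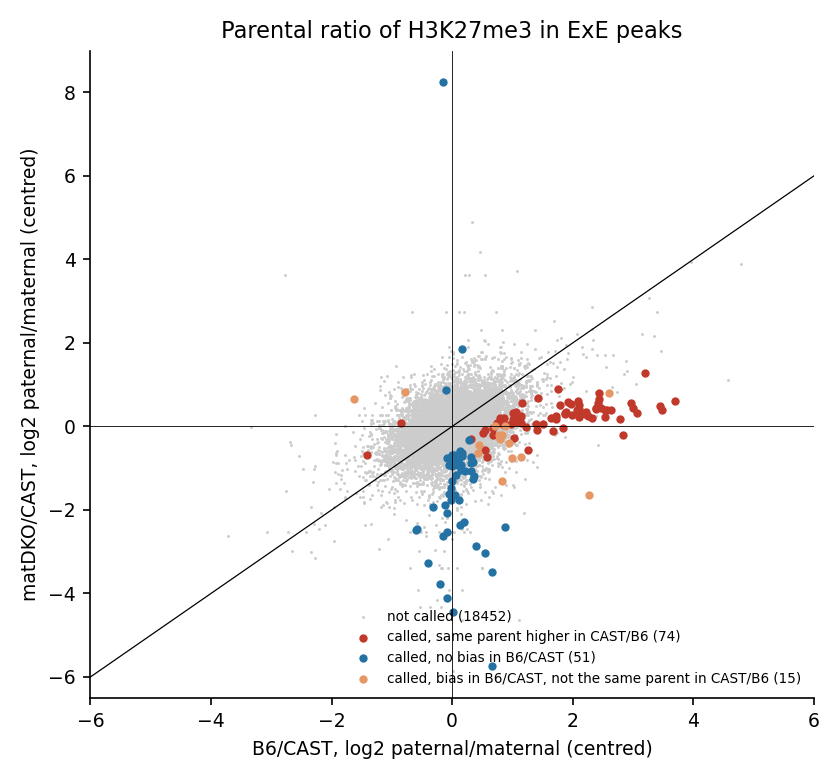
Centred log2 ratio of paternal to maternal H3K27me3 reads in B6/CAST (x axis) and in matDKO/CAST (y axis) for the 18592 informative autosomal ExE peaks. Points on the diagonal have equal ratios in both crosses, and colours mark the 140 peaks that passed, among which the 74 with the same parent higher in CAST/B6 lie mostly right of 0 and close to 0 on the y axis while the 51 with no bias in B6/CAST lie mostly below 0.

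The bias in B6/CAST and in the reciprocal cross CAST/B6, which took no part in the interaction test, placed the 140 peaks in 3 classes. At 74 of them the parent with more H3K27me3 in B6/CAST was also the higher one in CAST/B6, so that the wild-type bias followed the parent. The same parent was higher in both wild-type crosses at 214 of all 18592 informative peaks (bias in B6/CAST passed at 8.79% of informative peaks and in CAST/B6 at 21.7%). At 51 of the 140 there was no passing bias in B6/CAST, and at 15 there was a bias in B6/CAST that was not shared by the same parent in CAST/B6. The B6/CAST libraries entered both the wild-type bias and the interaction, so the bias in B6/CAST is no independent measure of the change. The bias in CAST/B6 sorted the peaks into classes, so its medians per class are a description.

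Among the 74 peaks of parental bias, 72 shifted toward the maternal allele, from a median log2 ratio of 1.81 in B6/CAST (1.96 in CAST/B6) to 0.25 in matDKO/CAST, a median change of -1.52. The difference was mainly on the maternal allele: its change had a median of 1.50 on the log2 scale and rose at 69 of the 72 peaks (4.28% of all informative peaks), whereas the paternal change had a median of -0.07 and passed at 6 (1 higher and 5 lower, 7.48% of all informative peaks in either direction). Over all informative peaks both medians were -0.01. These were long domains, with a median of 116 kb against 13.5 kb for all informative peaks, and 65 of the 72 lay on chromosomes 7 and 17. At 23 of the 72 peaks the paternal allele was still higher in matDKO/CAST at an adjusted p below 0.05, which was the case at 1.47% of informative peaks.

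For the 48 peaks without a bias in B6/CAST that shifted toward the maternal allele, the choice of members sets the start near 0 and the direction of the change. Their median ratio went from 0.08 (-0.12 in CAST/B6) to -1.28, with a median maternal change of 0.30 (22 higher and 5 lower, against 4.28 and 6.76% of all informative peaks) and a median paternal change of -0.96, which fell at 33 of 48 and rose at none (5.92% of all informative peaks were lower). They were shorter, with a median of 37 kb, and 8 lay on chromosomes 7 and 17. The 13 peaks with a bias in B6/CAST that the same parent did not share in CAST/B6 and that shifted toward the maternal allele, an order that the choice of members likewise sets, had median ratios of 0.83 in B6/CAST, -0.35 in CAST/B6 against -0.40 for matDKO/CAST.

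Passing peaks of 1 direction, joined over gaps of up to 1 Mb, formed 6 runs of at least 5 peaks, all toward the maternal allele, that held 76 of the 140. Each run starts and ends at a passing peak, so that its share of passing peaks is partly set by this rule (0.753% of all informative peaks passed). The longest surrounded Airn and Igf2r on chromosome 17, from 7135000 to 16106500, with 34 of 53 informative peaks passing over 8.97 Mb. Summed over its peaks, maternal H3K27me3 was 0.525 and 0.534 reads per kb of peak and M allelic reads for the B6/CAST libraries, 0.432 and 0.458 in CAST/B6 against 2.14 and 1.77 for matDKO/CAST. Paternal H3K27me3 on the same scale was 2.36 and 2.32, 2.20 and 1.97, and 2.22 and 1.92. The maternal level in matDKO/CAST was therefore well above every wild-type library and close to the paternal level of the same library, and the paternal levels of matDKO/CAST and CAST/B6 overlapped. The centred ratio of the sums was 2.27 and 2.18 in B6/CAST against 0.40 and 0.29 for matDKO/CAST, a change of -1.87. The maternal allele rose at 36 of the 53 peaks, against 4.28% of all informative peaks. The input, 0.506 and 0.504 RPKM in B6/CAST against 0.513 and 0.522 for matDKO/CAST, was nearly the same, and total H3K27me3 without regard to the allele was 1.57 and 1.36 RPKM in B6/CAST, 1.55 and 1.36 in CAST/B6 against 2.53 and 1.71 for matDKO/CAST.

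One of its peaks lay over the distal part of Airn and over Mas1, a receptor of an angiotensin peptide, at 12795500 to 12895000. Its reads were 82.5 and 81.3% paternal in B6/CAST, 84.98 and 81.98% in CAST/B6 and 48.7 and 50.6% for matDKO/CAST (log2 change -2.01 ± 0.15 (SE)). The wild-type libraries all stood above 80% there and the matDKO/CAST libraries near equal shares. The peak over Pabpc6, at 9496000 to 9730500, had a change of -1.95 and the peak over Rps6ka2, a ribosomal S6 kinase gene at 7135000 to 7348000, a change of -1.88.

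Of the other peaks of the run, the peak over T, the mesoderm factor brachyury, and Prr18 (8337500 to 8692500) went from 78.1 and 77.4% paternal to 51.3 and 51.1% (-1.54), and that over Pde10a, a phosphodiesterase (8719500 to 9347000), from 85.02 and 84.24% to 51.01 and 53.40% (-2.15). Beyond Airn on the other side, the peak over Thbs2, a matrix glycoprotein (14587000 to 14758000), went from 80.2 and 80.3% to 52.5 and 52.3% (-1.69), and that over Dll1, a Notch ligand (15214500 to 15396000), from 64.9 and 66.6% to 50.2 and 51.5% (-0.70). The wild-type share and the change were thus both smaller at Dll1, and the knockout shares were alike. Genes of the Airn domain list numbered 28, of which 24 had an informative peak, on 14 distinct peaks, and 12 of the 14 passed, all toward the maternal allele (0.753% in the background). The median change over the 14 peaks was -1.74 (range -2.73 to -0.21), with a median maternal change of 1.78 and a median paternal change of -0.07. The peaks of this list that did not pass lay over Sft2d1 (-0.96, adjusted p = 0.66) and over Acat2 and Tcp1 (-0.21, adjusted p = 0.98).

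A second run on chromosome 17, from 3309500 to 5789000, had all 12 of its informative peaks passing (0.753% of all informative peaks did). Its reads were 76.4 and 75.8% paternal in B6/CAST, 80.3 and 77.0% in CAST/B6 against 51.2 and 50.5% for matDKO/CAST. The maternal level went from 0.590 and 0.587 to 1.64 and 1.49 reads per kb and M, and the paternal level was 1.91 and 1.83 against 1.73 and 1.52. As around Airn, the difference between crosses was mainly on the maternal side. Both paternal levels of matDKO/CAST lay below those of B6/CAST, while those of CAST/B6 were 1.88 and 1.61. The level of an allele depends on how the libraries are scaled to each other. Arid1b, which encodes a subunit of the BAF chromatin remodelling complex, held the longest of these peaks (4348500 to 5146000), with 80.6 and 80.1% against 51.3 and 49.9% (-1.80). At 1 peak of the run, in Tiam2, the wild-type bias did not follow the parent: it was 83.0 and 88.5% paternal in B6/CAST but 53.1 and 45.8% in CAST/B6 against 66.2 and 52.6% for matDKO/CAST.

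**Figure D2:**
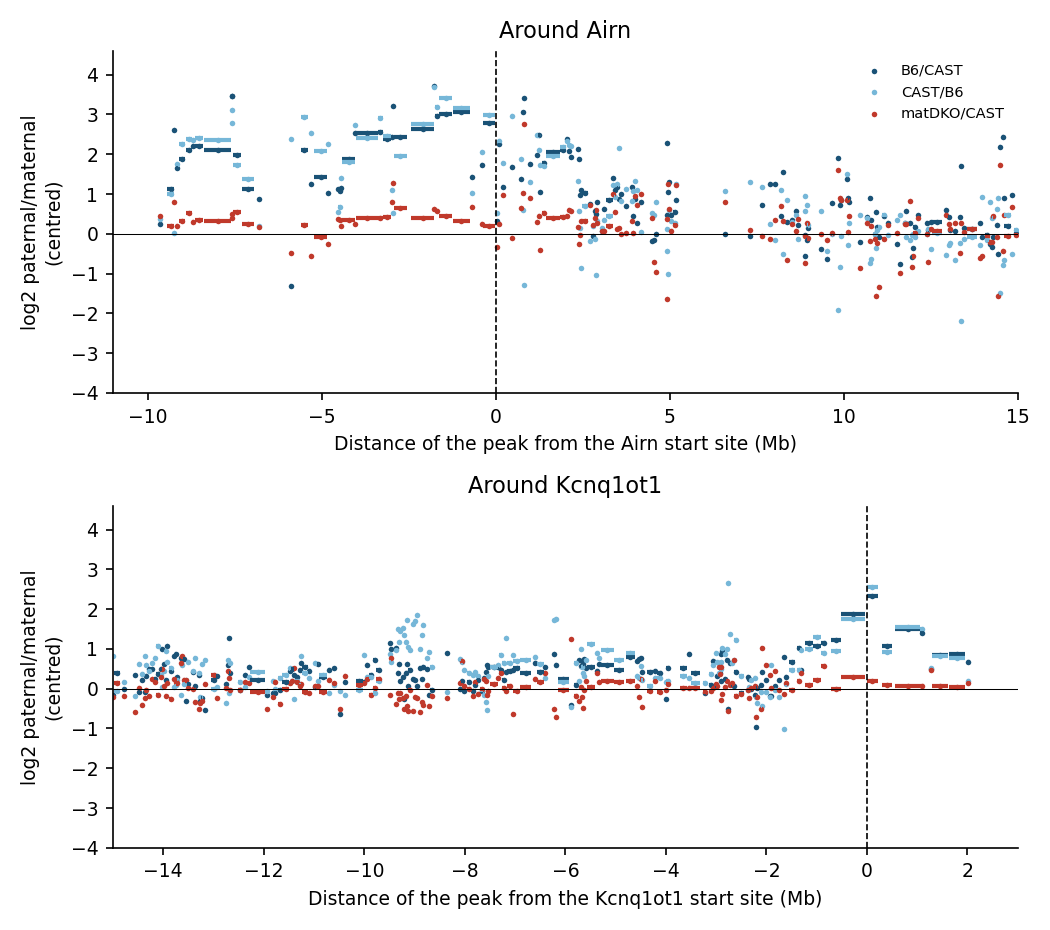
Centred log2 ratio of paternal to maternal H3K27me3 reads along chromosome 17 around the Airn start and along chromosome 7 around the Kcnq1ot1 start, in Mb from each start, with a horizontal bar for each informative peak from its first to its last base and a colour for each cross. Around Airn both wild-type crosses lie above matDKO/CAST at most peaks from about 9 Mb before to 2 Mb after the start, with exceptions at single peaks, and around Kcnq1ot1 the crosses part mainly within 2 Mb.

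By distance from the Airn start, the median change in bins of 1 Mb was between -0.70 and -2.55 from 10 Mb before the start up to it, -0.80 in the first Mb after it and -1.68 in the next. It was -0.76 from 2 to 3 Mb (4 of 13 peaks passed), -0.61 from 3 to 4 Mb (1 of 12) and -0.10 from 4 to 5 Mb (1 of 9), and from 5 to 15 Mb after the start none of the informative peaks passed. The bin with the largest median change, -2.55, was 1 to 2 Mb before the start. Around Kcnq1ot1 the median was -1.04 in the first Mb on the side of Igf2, where 4 of 4 peaks passed, and -1.44 in the first Mb on the other side, where 3 of 3 passed. It was -0.20 from 1 to 2 Mb on the Igf2 side, where 3 of 10 passed, and -0.81 from 1 to 2 Mb on the other side, where 3 of 4 passed. From 2 to 15 Mb on the Igf2 side the medians were between -0.09 and -0.52 with at most 1 passing peak in a Mb.

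The Kcnq1ot1 run on chromosome 7, 141744500 to 145246000, held 15 informative peaks, of which 13 passed (0.753% of all informative peaks did). Maternal H3K27me3 was 0.848 and 0.846 reads per kb and M in B6/CAST against 2.28 and 2.03 for matDKO/CAST, and paternal H3K27me3 was 2.18 and 2.12 against 2.06 and 1.93. The centred ratio of the sums was 1.46 and 1.39 in B6/CAST against 0.21 and 0.10 for matDKO/CAST, a change of -1.27. The largest change by p was at the peak over Kcnq1, Cdkn1c, an inhibitor of the cell cycle, Phlda2, a restrainer of placental growth, and Slc22a18 (143297500 to 143510000), with 83.5 and 81.5% paternal reads in B6/CAST, 86.8 and 83.9% in CAST/B6 against 48.8 and 48.6% for matDKO/CAST (-2.12 ± 0.14, adjusted p = 5.57e-26). Its maternal allele rose by 2.23 and the paternal change was 0.11. The peak on the other side of the promoter, over Ascl2, a transcription factor of the placenta, Cd81, Th, Trpm5 and Tssc4 (142781500 to 143250000), went from 77.6 and 77.7% to 50.1 and 50.5% (-1.59 ± 0.14).

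The neighbouring peak over Igf2, Ins2 and H19 (142580000 to 142774500), whose own germline DMR is methylated in sperm and not in oocytes, also changed, from 67.9 and 69.8% (66.2 and 65.8% in CAST/B6) to 44.5 and 45.6% (-1.24 ± 0.14, adjusted p = 1.03e-11). At 1 end of the run, over Ccnd1 (cyclin D1, 144931500 to 145246000), the share went from 63.2 and 63.4% to 43.9 and 48.9% (-0.82), and there the maternal change was 0.07 and the paternal change -0.74, unlike the other peaks named here. The list of the Kcnq1ot1 domain held 22 genes, of which 21 had an informative peak, on 4 distinct peaks. All 4 passed toward the maternal allele (0.715% of all informative peaks did) with a median of -1.28 (maternal 1.31, paternal 0.03).

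**Figure D3:**
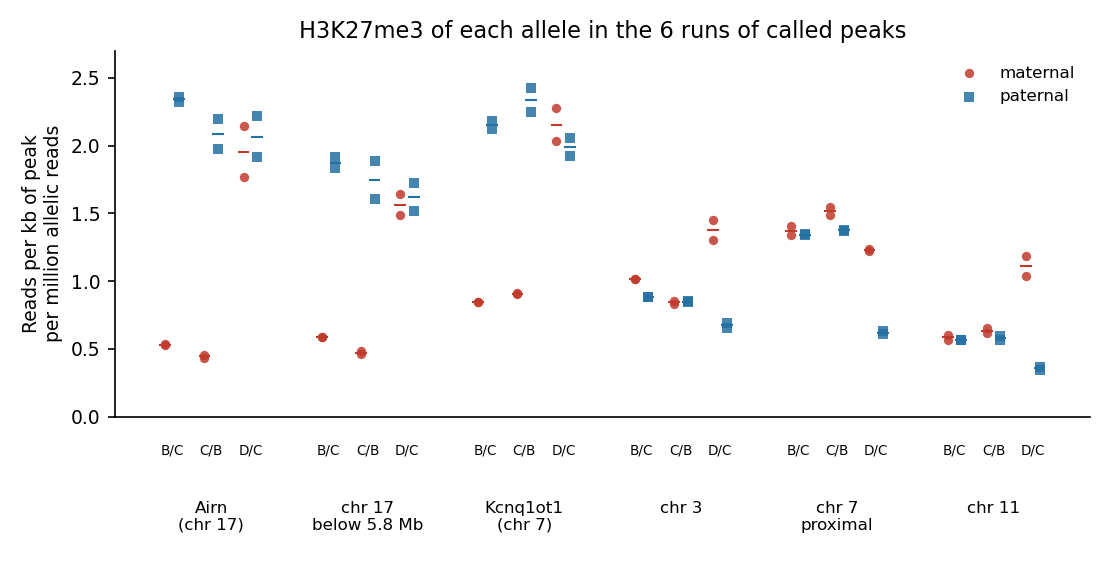
Maternal (circles) and paternal (squares) H3K27me3, in reads per kb of peak and M allelic reads, in each library of B6/CAST (B/C), CAST/B6 (C/B) and matDKO/CAST (D/C) for the 6 runs, with dashes at the mean of 2 libraries. In the Airn, lower chromosome 17 and Kcnq1ot1 runs the maternal points of matDKO/CAST rise to the paternal ones, whereas in the runs on chromosome 3, proximal chromosome 7 and chromosome 11 the alleles are close together in the wild types and farther apart in matDKO/CAST.

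Relative to the library medians, a paternal excess remained at many peaks of these 3 runs. The centred ratio in matDKO/CAST was above 0 at 45 of 53 informative peaks around Airn, at 12 of 12 in the run of lower chromosome 17 and at 13 of 15 in the Kcnq1ot1 run. The paternal bias passed on its own in matDKO/CAST at 21, 4 and 1 of these peaks in the same order, and at 1.47% of all informative peaks. Whether these shares differ between the runs was not tested. Since the ratios are centred on each library's median, which was -0.35 and -0.18 in matDKO/CAST, the uncentred paternal shares were 50.8 and 52.0% for the Airn run and 51.2 and 50.5% for the run of lower chromosome 17, but 47.5 and 48.7% for the Kcnq1ot1 run, so that the direction turned there without centring.

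Of the 74 peaks of parental bias, 16 lay outside the runs, and these included other loci with a DMR methylated in oocytes. At Plagl1, a zinc finger factor, the peak over the promoter printed above (chromosome 10, 13083000 to 13095500) went from 86.2 and 81.0% paternal reads (86.5 and 85.2% in CAST/B6) to 53.9 and 55.8% (-1.87 ± 0.38, adjusted p = 6.24e-04). This peak was chosen after its values were seen, as the peak with the most reads near Plagl1 lay elsewhere (13057000 to 13065000) and had a change of -0.27 that did not pass (adjusted p = 0.95). At Grb10, an adaptor that restrains insulin signalling, the peak over the promoter (chromosome 11, 12013000 to 12062000) went from 75.4 and 79.0% (92.5 and 87.3% in CAST/B6) to 48.9 and 39.4% (-1.88 ± 0.21, adjusted p = 4.72e-13), with a maternal rise of 1.44 and a paternal change of -0.44 (adjusted p = 0.024).

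The Gnas complex, which encodes the stimulatory G protein subunit and several imprinted transcripts, had changes in both directions. The peak over the Nespas transcript (chromosome 2, 174296000 to 174310500) held 9 maternal and 65 paternal reads and 7 and 45 in both B6/CAST libraries, and 43 and 25 and 36 and 32 in matDKO/CAST, so that its paternal share went from 87.8 and 86.5% to 36.8 and 47.1% (-3.03 ± 0.44, adjusted p = 6.03e-08). The H3K4me3 peak that overlaps it, 174282500 to 174302000, went from a ratio of 1.195 to -0.051 (-1.25, adjusted p = 0.0142). The peak at 174317500 to 174330000 went from 77.0 and 74.5% to 52.5 and 43.8% (-1.55 ± 0.34). The next peak, between Gnas and Nelfcd (174349000 to 174415000), moved the other way, from 32.1 and 37.2% (43.7 and 46.5% in CAST/B6) to 47.6 and 45.6% (0.92 ± 0.18, adjusted p = 4.26e-04). All 3 peaks thus came closer to equal shares.

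Of the 7 peaks that shifted toward the paternal allele, 2 followed the parent in the wild types, the one near Nelfcd and one over Zdbf2, a zinc finger gene expressed from the paternal copy (chromosome 1, 63219000 to 63284000). At Zdbf2 the paternal share was 26.6 and 25.9% in B6/CAST, 31.3 and 32.8% in CAST/B6 against 29.9 and 39.3% for matDKO/CAST (0.72, adjusted p = 0.0412). Its matDKO/CAST libraries differed from each other by more than those of either wild type. At Ndrg3 (chromosome 2, 156909500 to 156923000) the shares were 37.9 and 32.5%, 63.8 and 62.1%, and 56.4 and 62.3% in the same order (1.59), at Hecw1 17.1 and 29.4%, 69.8 and 58.1%, and 45.2 and 67.7% (2.28), so that matDKO/CAST lay above B6/CAST at both peaks and, but for replicate 2 at Hecw1, on the side of CAST/B6. Plekhb1 had 47.6 and 46.2% in B6/CAST against 63.5 and 55.8% in matDKO/CAST (0.96), and Cdkl4 56.2 and 45.5% against 71.8 and 79.3% (1.68).

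The list of other loci with a maternal germline DMR held 44 genes, of which 25 had an informative peak, on 21 distinct peaks. Of these 4 passed, 2 toward the maternal allele (0.715% of all informative peaks) and 2 toward the paternal allele (0.0377%), and the median change was 0.10. At Mest (chromosome 6, 30695500 to 30740000) the paternal share was 63.3 and 64.5% in B6/CAST, 70.1 and 62.8% in CAST/B6 against 45.5 and 50.3% for matDKO/CAST, a change of -0.78 that did not pass (adjusted p = 0.073, and 0.017 with the library as a replicate block). At H13 it was -0.42 (adjusted p = 0.299, and 5.7e-04 with the block). Peg3, Usp29, Snrpn, Peg10 and Nnat had no informative peak near them.

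In the Dlk1 to Dio3 domain on chromosome 12, whose DMR is methylated in sperm, 0 of 10 informative peaks passed (0.753% of all informative peaks did, so that such a count says little about a short list), with a median ratio of -0.81 in B6/CAST, -0.83 in CAST/B6 against -0.87 for matDKO/CAST. The Dlk1 peak was 20.3 and 23.7% paternal in B6/CAST against 19.1 and 25.7% for matDKO/CAST, and the peak over Rtl1 and Rian, with the opposite bias, 85.6 and 78.2% against 79.4 and 68.9%. In the list of paternal germline DMR loci as a whole, 10 of 11 genes were measured on 7 peaks, with a median change of 0.14, and the peak that passed was the one over Igf2 and H19 described with the Kcnq1ot1 run.

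Of the noncanonical imprinted genes 7 of 8 had an informative peak, and 0 of these 7 peaks passed, again against a background of 0.753%, with changes between -0.65 and 0.70 and a median of 0.05. Sfmbt2, a Polycomb group gene, was 27.8 and 29.0% paternal in B6/CAST, 26.98 and 30.87% in CAST/B6 against 23.6 and 29.9% for matDKO/CAST. Its change was 0.05 with a 95% interval from -0.26 to 0.37, so that the maternal excess of H3K27me3 there differed by less than its error. Sall1 had 9.2 and 26.3% against 8.3 and 10.5%, with few reads and an interval from -2.04 to 0.73. At Slc38a4, an amino acid transporter gene, the share was 15.4 and 23.1% in B6/CAST but 46.2 and 42.1% in CAST/B6 against 8.8 and 35.3% for matDKO/CAST, whose libraries disagreed. Gab1, a signalling adaptor, had a ratio of 0.06 in B6/CAST against 0.76 for matDKO/CAST (change 0.70, adjusted p = 0.66). No informative peak lay near Jade1.

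Among peaks not tied to imprinting, the 4 Hox clusters lay in 1 long peak each and 0 of 4 passed, against 0.753% of all informative peaks (HoxA 0.10, HoxB -0.16, HoxC 0.02, HoxD 0.18). Of 18 germline genes that DNA methylation silences, 15 had an informative peak, of which 0 passed, with a median change of -0.02 and a range from -0.64 to 0.48. Over all informative peaks, in simulated data with these counts, a change of 1 on the log2 scale was found at 35% of changed peaks and a change of 2 at 67%, but the Hox peaks were far deeper than most, with between 3766 and 9097 allelic reads in replicate 1 of B6/CAST.

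Of the 214 peaks at which the same parent was higher in both wild-type crosses, 183 had a paternal and 31 a maternal excess. The 183 had a median ratio of 0.78 in B6/CAST, 0.81 in CAST/B6 against 0.18 for matDKO/CAST, and 72 of them passed. The 31 had medians of -0.84, -0.81 and -0.62, and 2 passed, where 0.753% of all informative peaks did. The B6/CAST libraries entered both the choice of these peaks and the test, so that these counts are a description. Whether the shares that passed differ was not tested, and the paternal peaks include the long domains with most reads.

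The other 3 runs had paternal shares between 46.4 and 50.4% in the wild types and a maternal excess in matDKO/CAST. On chromosome 11, 58186500 to 59202000, 7 of 13 informative peaks passed, and the paternal share was 48.6 and 49.9% in B6/CAST, 47.6 and 47.8% in CAST/B6 against 25.0 and 23.6% for matDKO/CAST. On proximal chromosome 7, 18912000 to 19865500, 5 of 16 passed, with 48.8 and 50.1%, 48.1 and 47.0%, and 33.9 and 33.1%, and on chromosome 3, 36640500 to 38503500, 5 of 23 passed, with 46.5 and 46.4%, 50.4 and 49.9%, and 33.4 and 32.4%. The allelic changes in these runs differed in kind. On proximal chromosome 7 the maternal level was 1.40 and 1.34 against 1.24 and 1.22 reads per kb and M, and the paternal level 1.34 and 1.35 against 0.634 and 0.606. On chromosome 11 the maternal level was 0.600 and 0.568 against 1.03 and 1.19 and the paternal level 0.568 and 0.566 against 0.345 and 0.367.

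At single peaks of these runs the reads of the alleles and the total signal parted. Over Igtp and Irgm2, interferon-inducible GTPases (chromosome 11, 58186500 to 58300500), the B6/CAST libraries held 36 maternal and 40 paternal reads and 34 and 27, and the matDKO/CAST libraries 231 and 10 and 241 and 8 (-4.45 ± 0.39), whereas total H3K27me3 was 1.33 and 1.01 RPKM against 1.27 and 0.912. Over Lypd8 (58356000 to 58468500) the reads were 25 and 15 and 12 and 18 against 183 and 10 and 194 and 8 (-4.03), with a total of 0.738 and 0.632 RPKM against 0.752 and 0.626. The number of assigned reads thus rose several-fold in matDKO/CAST with no such rise of the total signal. The knockout reads were assigned with a different set of variants, to which 129 variants were added on the maternal side only, and the part of this step in these values was not tested. In the opposite sense, over Dll4, a Notch ligand gene (chromosome 2, 119306000 to 119355500), 385 and 394 and 296 and 279 reads in B6/CAST stood against 100 and 30 and 48 and 24 in matDKO/CAST (-1.23), with totals of 2.52 and 2.13 against 2.40 and 1.79 RPKM. On chromosome 3 the total did differ at the peak Gm42921 (37766500 to 37799000), with 0.874 and 0.678 RPKM against 1.80 and 1.64 and reads of 90 and 125 and 70 and 70 against 201 and 73 and 186 and 67 (-1.56).

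Other marks of the same embryos were compared over the same runs. In the chromosome 11 run the median change of ExE H3K4me3 was -1.20 over 11 peaks, of which 5 passed (0.875% of all H3K4me3 peaks passed in either direction), and that of H3K36me3, a mark of transcribed gene bodies, was -1.13 over 6, of which 2 passed (0.363% of all H3K36me3 peaks in either direction, 0.326% toward the maternal allele). On proximal chromosome 7 the medians were -0.80 over 44 H3K4me3 peaks, of which 11 passed, and -0.73 over 11 H3K36me3 peaks, of which 0 passed. On chromosome 3 they were -0.48 over 16, of which 1 passed, and -0.73 over 6, of which 1 passed. In these 3 runs the median change of active and repressive marks was thus negative throughout, though most of these peaks of the active marks did not pass. Around Airn the H3K4me3 median was 0.245 over 84 peaks, of which 2 passed, 1 of them toward the maternal allele. The H3K36me3 median there was 0.14 over 24 peaks, of which 0 passed. Around Kcnq1ot1 the H3K4me3 median was 0.32 over 54 peaks, of which 4 passed, 1 of them toward the maternal allele. These medians had the opposite sign to H3K27me3 but rest on peaks that mostly did not pass. The H3K4me3 peaks over the Airn and Kcnq1ot1 starts, given earlier, changed toward the maternal allele.

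Among the 48 peaks with no wild-type bias that shifted toward the maternal allele, 31 overlapped an informative H3K4me3 peak, and there the H3K4me3 change was negative at 25 and passed at 9 (0.793% of all H3K4me3 peaks passed toward the maternal allele), with a median of -0.64. The 12 H3K36me3 peaks that they overlapped each had a negative change, of which 0 passed, with a median of -0.67. Among the 72 peaks of parental bias, 42 overlapped an H3K4me3 peak, the change was negative at 14 of these and the median was 0.25. Of the 18 H3K36me3 peaks that they overlapped 10 had a negative change, with a median of -0.13. The difference between the classes was not tested. All marks of a pool come from the same chromatin and read assignment, so they are not independent of each other.

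In the epiblast of the same crosses, H3K27me3 of 41 of the 72 peaks of parental bias could be compared, and the change was negative at 36 and passed at 7 (0.146% of informative epiblast peaks passed toward the maternal allele and 0.179% in either direction), with a median of -0.52. One of the epiblast matDKO/CAST libraries had only 0.271 M allelic reads. Over the span of the Airn run the epiblast reads were 67.3 and 60.7% paternal in B6/CAST against 48.4 and 48.2% for matDKO/CAST, and 2 of 56 peaks passed with 53 negative (median -0.74). The direction was therefore the same in both tissues from a smaller wild-type bias in epiblast. Whether the change differed between tissues was not tested. Zdbf2, which shifted toward the paternal allele in ExE, did so in epiblast with a change of 2.16 (adjusted p = 5.69e-04).

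**Figure D4:**
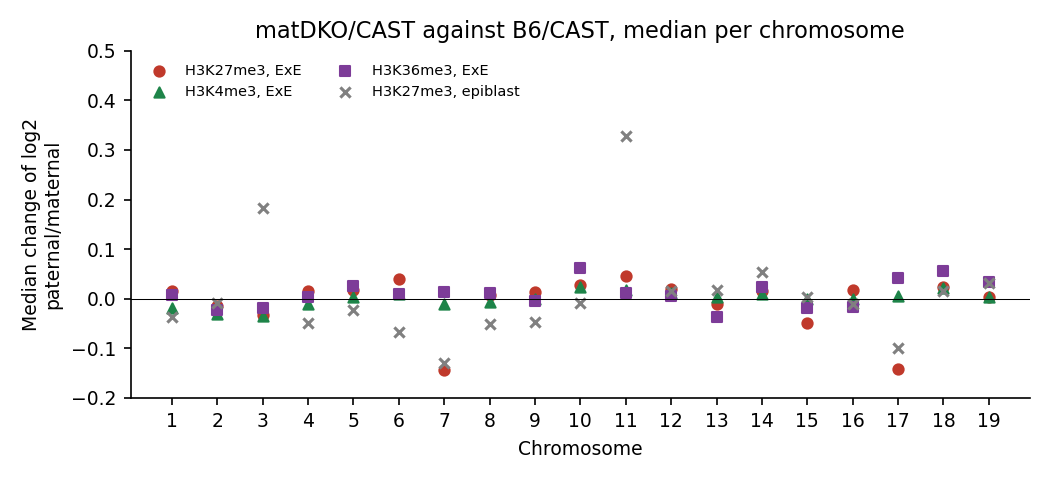
Median change of the centred log2 paternal to maternal ratio (matDKO/CAST minus B6/CAST) over the informative peaks of each autosome, for ExE H3K27me3, ExE H3K4me3, ExE H3K36me3 and epiblast H3K27me3. Chromosomes 7 and 17 lie below the others for ExE H3K27me3, at -0.145 and -0.141, while chromosomes 3 and 11 stand apart for epiblast H3K27me3, at 0.184 and 0.328, as they did for epiblast H3K4me3, which is not drawn (0.211 and 0.248).

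Of the 19 autosomes, chromosome 17 held 51 of the 140 peaks (6.99% of its informative peaks) and chromosome 7 held 31 (2.48%), while chromosomes 8, 9, 14 and 18 held none. The median change over all informative peaks was -0.145 on chromosome 7 and -0.141 on chromosome 17, against values from -0.048 to 0.046 on the other autosomes. Over peaks with at least 100 allelic reads in each of the 4 libraries the medians were -0.162 and -0.157. H3K4me3 in ExE had medians of -0.012 and 0.006 on the same chromosomes. Without chromosomes 7 and 17, a choice made after seeing the data, 48 peaks passed of 16614, 44 toward the maternal allele.

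Total H3K27me3, without regard to the allele, was higher in matDKO/CAST at 71 of the 72 peaks of parental bias, with a median of 0.29 on the log2(RPKM + 0.5) scale, where 41.6% of all peaks had an estimate above 0. By limma none of these passed, and only 2 of 22515 peaks passed at all (0.00888%), both lower. On the reads recovered from the RPKM table edgeR called 38 of the 72 higher and none lower, with 0.902% of all peaks called higher and 1.45% in either direction. At the 48 peaks without wild-type bias the total was higher at 16 and lower at 32, with a median of -0.06, and edgeR called 4 higher.

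At 2 of the 140 peaks the input itself differed between the crosses, by more than 0.75 on the log2 scale, which was so at 9 of the 18592 informative peaks (0.0484%). Over Ssc4d and Zp3 (chromosome 5, 135964000 to 135992500) the input was 1.12 and 2.31 RPKM in the matDKO/CAST libraries against 0.573 and 0.550 in B6/CAST and 0.520 and 0.578 in CAST/B6. Zp3 encodes an egg coat protein, and its promoter drives the Cre of the knockout mothers. H3K27me3 there held 301 maternal and 88 paternal reads and 835 and 48 in matDKO/CAST, against 108 and 126 and 76 and 103 in B6/CAST (-3.26 ± 0.33, adjusted p = 5.35e-15), and the excess was on the maternal side alone (3.28, against 0.02 for the paternal allele). In the 6 windows of 1 kb before the Zp3 start the input was 2.85 and 7.85 RPKM and H3K27me3 was 6.37 and 19.6 RPKM, whereas in the other 22 windows of the peak the input was 0.642 and 0.793. The extra input thus lay mostly in the stretch just before Zp3, and there it was larger in replicate 3 than in replicate 2. It reached past these 6 windows, with 1.32 and 3.28 RPKM in the window before them, where the wild-type libraries had at most 1.17, and 0.732 and 1.23 RPKM in the window after them, where they had at most 0.588.

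**Figure D5:**
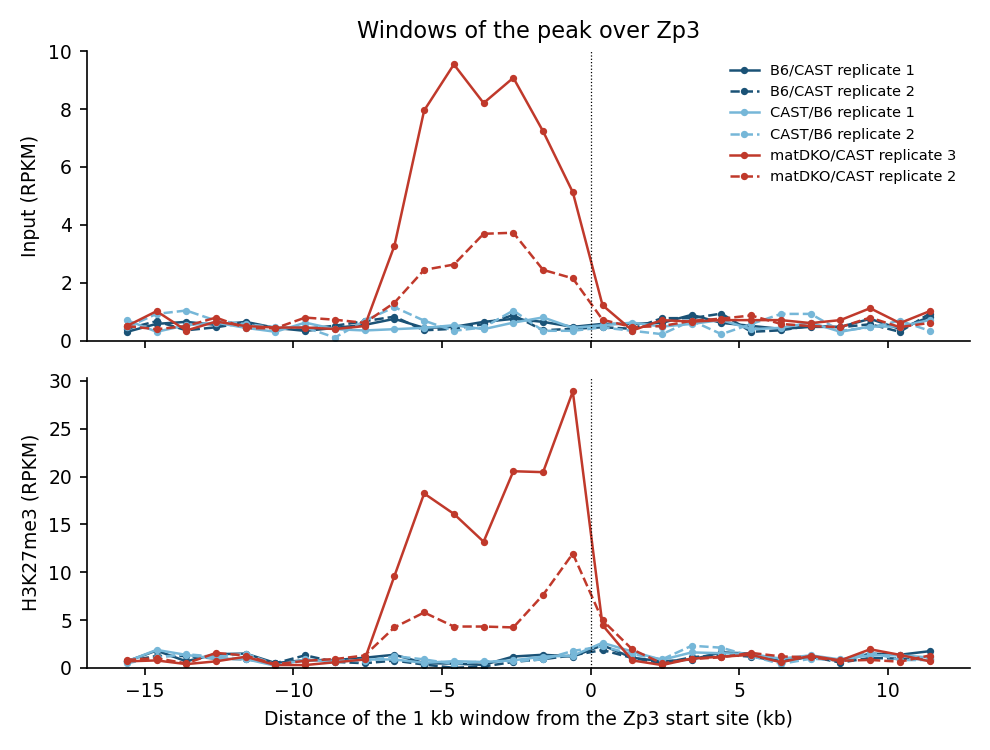
Input (upper panel) and H3K27me3 (lower panel) in RPKM in windows of 1 kb around the Zp3 start, by distance in kb, with 1 line for each ExE library. Both matDKO/CAST libraries rise in the windows just before the start in input and in H3K27me3, and the 4 wild-type libraries stay below 1 RPKM of input on average there.

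The other such peak was at Anks1b (chromosome 10, 89898500 to 89912500), where the input was 0.240 and 0.249 RPKM in matDKO/CAST against 0.497 and 0.527 in B6/CAST. No maternal read was seen there in matDKO/CAST beside 21 and 32 paternal reads, which allows a maternal share of up to 5.66% over both libraries, counting error only, against 48 maternal and 29 paternal and 37 and 43 reads in B6/CAST. The maternal level was at least 18.0-fold lower, taking 3 reads over both libraries as the floor. This peak was among the 7 that shifted toward the paternal allele. At both peaks the input moved with the allelic ratio, and its part in the change was not tested, while at the other 138 the difference in input stayed within 0.75.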

How the data were processed

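ExE of E6.5 embryos was profiled by native ultra-low-input ChIP-seq, with the chromatin of a pool divided between antibodies and input. Per the paper's methods the authors trimmed reads with Trim Galore, aligned them with Bowtie2 (versions 0.4.4 and 2.3.2 in the submitters' processing notes; the paper names another Trim Galore version) to GRCm38 masked at variants, and split them by parent with SNPsplit. For matDKO/CAST the authors left out variants shared by 129 and CAST and added reads assigned to 129 on a second alignment to the maternal reads. The deposited allelic tables hold raw read counts per peak and allele, over peaks that the authors called with chromstaR per wild-type cross and combined, and their start and end columns were used. The authors also deposited RPKM in windows of 1000 bp from all aligned reads, in which 100% of low values were whole multiples of 1 read (tolerance 2%). The 12 peak lists, which hold no per-library values, were not used.

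Peaks needed 20 reads in 1 allele column of a wild-type library. The interaction of cross and parent was fitted over the 4 libraries with edgeR 4.0.16 (quasi-likelihood F test, two-sided, Benjamini-Hochberg adjustment over all informative peaks), with library sizes set so that each library's autosomal median ratio was 0. Adjusted p-values in the text come from this test unless another tool is named. An exact permutation of 2 against 2 libraries cannot give a p below 0.333 and was not used. The same model gave the bias in both crosses and the change of each allele, and the bias in CAST/B6 was fitted on its own 2 libraries. Library log2 ratios had 0.5 added to each count, total signal was tested with limma 3.58.1 on log2(RPKM + 0.5), and edgeR on the reads recovered from RPKM was an alternative chosen after seeing the data. DESeq2 1.42.0 was another alternative. The crosses compared share only replicate number 2, and the labels do not say that it marks a common animal or day, but both alleles of a library come from 1 pool, which is the block. On simulated counts with 100 peaks changed at each size, 6 of 108 calls were false. Apart from the set changes, the simulation gave all allele columns of a peak the same scaled mean. It held no strain bias and no difference in read assignment between crosses, so that it says nothing about false calls from these. Genes came from GENCODE vM21 and promoters from RefSeq GRCm38.p6. Named are the genes of the lists with an informative peak within 10000 bp, by the peak with most reads, the 10 peaks per direction with the smallest p and at least 50 reads in each library, and the runs; other features were chosen after their values were seen. A few peaks that meet this rule are not reported here. Members and lists were chosen with earlier results of these data known. Scripts ran in R 4.3.3 and in Python 3.11.15 with pandas 2.3.3, numpy 2.4.6 and matplotlib 3.10.9. Intervals of log2 changes come from the edgeR standard error, and limits for counts of 0 cover counting error only.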

Additional observations from a re-analysis of the deposited data

Results flagged for a closer look

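The input libraries, which entered no comparison of alleles, held a signal at 1 passing peak. Over Ssc4d and Zp3 the mean input was 1.12 RPKM in replicate 2 of matDKO/CAST and 2.31 RPKM in replicate 3, above both inputs of B6/CAST (0.573 and 0.550) and of CAST/B6 (0.520 and 0.578). The allelic change at this peak is therefore given beside its input in the text, and the part of the input in it was not tested.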

How the results depend on the processing

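The count depended on the centring. With library totals and no centring 343 peaks passed, 339 toward the maternal and 4 toward the paternal allele, since the median change over all informative peaks was then -0.19. DESeq2 called 77 (75 and 2; 55 of the 74, 18 of the 51 and 4 of the 15 peaks of the classes in the order of the text), and the fit with the library as a replicate block 237 (221 and 16). With 1 library left out at a time the count ranged from 65 to 113, from 63 to 109 toward the maternal and from 2 to 6 toward the paternal allele. Of the 74 peaks of parental bias between 45 and 67 were kept, of the 51 without wild-type bias between 16 and 27, and of the 15 with a bias in B6/CAST that the same parent did not share in CAST/B6 between 3 and 6. An adjusted p below 0.01 left 4 peaks toward the paternal allele. Without chromosomes 7 and 17, chosen after seeing the data, 48 peaks passed (44 and 4). TMM factors, no filter, 20 reads in each library and the addition of CAST/B6 libraries gave between 138 and 154. Of the 140 peaks, none that a setting tested changed sign under it, though not all 140 were tested under each. As a median over peaks in place of a sum, the change of the runs was -0.93 on proximal chromosome 7, -0.99 around Kcnq1ot1, -0.78 on chromosome 11, -1.78 on lower chromosome 17 and -1.51 around Airn. For total H3K27me3 159 peaks passed with the 6 ExE libraries alone (33 higher and 126 lower) and 326 with edgeR on recovered reads (203 higher and 123 lower), against 2 (both lower), so that the prevailing direction turned. The 2 libraries per cross and the lower depth of matDKO/CAST limit what short peaks can show.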

Other observations

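A few single peaks outside the runs, chosen after their values were seen, are given as values. At Rims2 (chromosome 15, 39178000 to 39208000) the paternal share was 71.1 and 63.1% in B6/CAST, 28.8 and 29.9% in CAST/B6 and 39.4 and 25.0% in matDKO/CAST, so that the knockout cross, with a CAST father as in B6/CAST, stood with the reciprocal cross. Near Mgmt, a DNA repair gene on chromosome 7, the shares were 57.3 and 60.1%, 75.7 and 79.4%, and 29.9 and 36.5% in the same order, and the change of -1.31 took the ratio past that of either wild type. Near Dhrs3 (chromosome 4, 144887000 to 144895500) no paternal read was seen beside 6 and 5 maternal reads in matDKO/CAST, which allows a paternal share of up to 27.3% over both libraries, against 13 maternal and 15 paternal and 7 and 15 reads in B6/CAST.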
